A study of Homo sapiens with 24 samples.

Results

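The recurrent OG-high bins are 1 kb stretches of the genome that stood high in many of the 12 columns of OG-seq values. They were chosen by the measured values themselves: a bin belonged when its value reached the 95th percentile of its own column, over all bins, in at least 6 of 12 columns. Chromosome X was left out, as was the segment of chromosome 15 from base 60000001 to base 90000000. Of 2835235 bins in the table, 3235 met this rule. The same limit was met by 5672 bins of the chromosome 15 segment and by 38 bins of chromosome X, which are not described here.

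OG is 8-oxo-7,8-dihydroguanine, a common product of guanine oxidation. In OG-seq the lesion is coupled to biotin, fragments that carry it are pulled down on streptavidin and sequenced, and fragmented DNA without pulldown serves as input. All cells were HAP1, a near-haploid human line derived from the KBM-7 leukemia line, kept at low passage. Per genotype there were 3 columns, from 2 clones and independent experiments: wild type (WT), MUTYH-/, OGG1-/ and the double knockout DKO (MUTYH-/ X OGG1-/). The knockouts carry CRISPR-Cas9 insertions or deletions, and the DKO was made from an OGG1-/ clone, so the genotypes also differ in clonal history. The labels do not tie a column to a clone, and part of the spread between columns may be clonal or technical. The limma p-values below take a bin's variance from the trend with mean level. The bin's own spread between columns does not enter them. Columns held 59605795 to 113916768 OG reads and 78621690 to 101609126 input reads.

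OGG1 is the DNA glycosylase that excises OG paired with cytosine, and MUTYH removes adenine that a polymerase has placed opposite OG. Guanine is most easily oxidised within runs of guanines, and oxidation of promoter sequences that can fold into G-quadruplexes has been linked to transcription. Read-based maps of a lesion also follow how many copies of a sequence the cell carries, because a stretch present many times sends reads to the few copies that the reference holds. The value analysed here is OG reads minus scaled input reads, so a stretch with more reads of both kinds has a larger difference at the same ratio.

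The sequences below, from GRCh38, show the members with the highest values and those of the largest clusters, on which the results turn. They are the 300 bases richest in G and C within the 3 bins with the highest mean value and within the highest bin of 4 of the 5 largest clusters, 1 bin serving for both. Each is labelled by the gene over the centre of its bin, and a stretch may cross an exon. Capitals mark runs of at least 3 G or at least 3 C.
TTC34, chr1:2654002-2654301: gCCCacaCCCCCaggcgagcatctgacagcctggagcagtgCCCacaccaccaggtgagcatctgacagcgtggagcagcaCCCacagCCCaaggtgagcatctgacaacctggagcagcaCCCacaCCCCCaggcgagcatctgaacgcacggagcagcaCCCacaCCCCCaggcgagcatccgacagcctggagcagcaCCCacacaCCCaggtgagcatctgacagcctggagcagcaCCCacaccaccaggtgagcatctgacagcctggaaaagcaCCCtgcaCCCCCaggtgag
TTC34, next bin, chr1:2653634-2653933: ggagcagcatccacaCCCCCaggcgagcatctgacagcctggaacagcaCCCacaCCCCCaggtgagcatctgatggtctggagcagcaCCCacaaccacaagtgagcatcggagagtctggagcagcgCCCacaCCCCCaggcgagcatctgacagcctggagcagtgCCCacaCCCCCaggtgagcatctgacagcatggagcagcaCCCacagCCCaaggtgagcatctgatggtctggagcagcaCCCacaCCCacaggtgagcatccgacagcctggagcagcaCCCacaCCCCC
matching the RNA18SN2 start, chr21:8988001-8988300: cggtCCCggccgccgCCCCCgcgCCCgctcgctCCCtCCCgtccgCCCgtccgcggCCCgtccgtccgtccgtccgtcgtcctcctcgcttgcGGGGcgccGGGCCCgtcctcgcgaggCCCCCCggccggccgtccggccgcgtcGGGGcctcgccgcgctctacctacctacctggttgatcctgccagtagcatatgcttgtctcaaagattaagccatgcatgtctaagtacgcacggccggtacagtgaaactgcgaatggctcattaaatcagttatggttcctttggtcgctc
SULT1A3, chr16:30202629-30202928: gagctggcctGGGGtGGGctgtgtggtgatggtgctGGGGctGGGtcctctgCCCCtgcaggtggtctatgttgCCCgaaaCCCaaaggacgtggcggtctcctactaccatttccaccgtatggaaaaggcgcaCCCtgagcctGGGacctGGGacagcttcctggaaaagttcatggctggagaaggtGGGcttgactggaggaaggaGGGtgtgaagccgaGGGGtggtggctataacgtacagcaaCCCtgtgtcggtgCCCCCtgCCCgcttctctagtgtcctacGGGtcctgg
CLEC18B, chr16:74411001-74411300: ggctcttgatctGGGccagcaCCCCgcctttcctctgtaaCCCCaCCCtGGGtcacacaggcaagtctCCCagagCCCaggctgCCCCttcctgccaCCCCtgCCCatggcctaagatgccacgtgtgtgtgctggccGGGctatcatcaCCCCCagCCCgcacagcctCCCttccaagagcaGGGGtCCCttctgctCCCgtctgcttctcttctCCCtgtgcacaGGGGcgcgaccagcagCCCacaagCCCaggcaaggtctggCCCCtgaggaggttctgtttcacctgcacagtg
ENSG00000247228, chr16:70165242-70165541: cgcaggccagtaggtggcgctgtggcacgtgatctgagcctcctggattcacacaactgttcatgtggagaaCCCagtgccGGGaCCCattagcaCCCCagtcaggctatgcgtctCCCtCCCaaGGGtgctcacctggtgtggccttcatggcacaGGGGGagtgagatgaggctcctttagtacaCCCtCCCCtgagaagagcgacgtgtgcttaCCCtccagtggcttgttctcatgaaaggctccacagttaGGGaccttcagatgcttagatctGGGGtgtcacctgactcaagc
Both TTC34 stretches are tandem repeats. Shifted by 40 bases, 71.7% and 76.5% of the bases of their bins were the same. The chromosome 21 stretch matched the start of a ribosomal RNA gene: 310 bases of the bin, from position 8988172 on, were identical to the start of RNA18SN2, an 18S ribosomal RNA gene that RefSeq places at chr21:8209631-8211499. Compared base by base without gaps over the 1869 bases of that gene, 47.9% were the same. The 3 stretches from chromosome 16 lie in clusters of segmental copies, and 64.4 to 100% of the 32-base words were present more than once in the genome in the median member of those clusters.

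Recurrence fell steeply with the number of columns required. Of the 3235 members, 1877 (58.0%) were high in exactly 6 columns, 628 in 7, 297 in 8, 177 in 9, 125 in 10, 82 in 11 and 49 in all 12. The members just inside the limit had a median value of 25.8 OG reads over input, averaged over columns, against 22.7 for the 7019 bins just outside it with 5 high columns. Bins with 12 high columns had a median of 84.7 and reached 243. The median over the members was 27.9 and over all bins of the same chromosomes 8.34. The columns' own limits ran from 23.3 (WT replicate 1) to 34.2 (MUTYH-/ replicate 1).

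**Figure D1:**
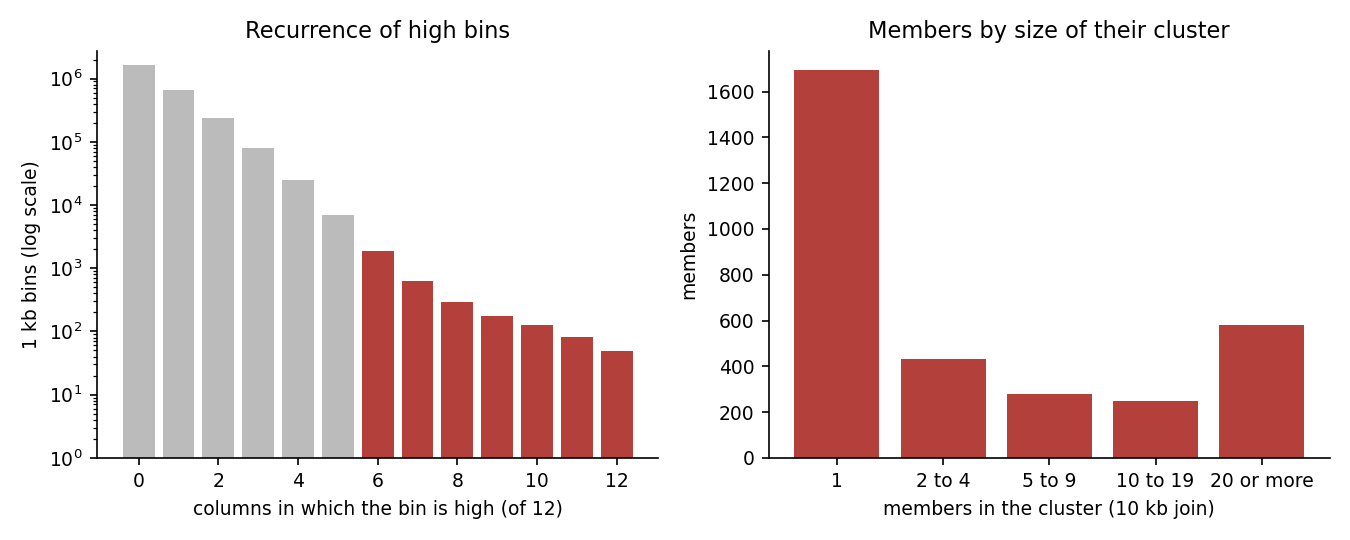
Left, number of 1 kb bins (log scale) by the number of columns, of 12, in which the bin was high, with members in red and other bins in grey. Right, members by the size of the cluster they lie in, where 1694 of 3235 stand alone and 579 lie in the 15 clusters of 20 or more.

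Because the same columns chose the members, bins were also chosen in 3 genotypes and read in the genotype left out. Bins high in at least 5 of the 9 columns of the other genotypes were high in 33.1% ± 5.11 (SD, n = 12 columns) of cases in a column that took no part in the choice. The lowest share was 23.4% in DKO replicate 1 and the highest 42.9% in OGG1-/ replicate 2. In the same columns 4.81 to 4.92% of all bins, and 7.64 to 12.3% of bins in the same strata of GC content, were high. By genotype the shares were 32.6% ± 1.99 for WT, 32.9% ± 5.27 for MUTYH-/, 38.3% ± 4.02 for OGG1-/ and 28.6% ± 4.87 for DKO (SD, n = 3). These are descriptions, since neighbouring bins are not independent and all columns come from the same cell line.

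Members were spread over all 22 autosomes but were dense on a few. Per 10000 bins there were 12.2 members on all chromosomes together, 64.2 on chromosome 16, 51.5 on chromosome 21, 41.1 on chromosome 17, 39.4 on chromosome 19, 39.0 on chromosome 22 and 31.7 on chromosome 20. Chromosome 18 had 13 members, 1.75 per 10000 bins, and chromosome 13 had 35. On chromosomes 16 and 21 most members were clustered: 318 of 507 and 152 of 178 lay in clusters of 5 or more. Chromosome 19, the chromosome richest in G and C (48.4%), had the densest members standing alone, 176 of 216. Of all members, 387 (11.96%) lay within 100 kb of an assembly gap, against 1.67% of all bins, and 262 (8.10%) lay within 1 Mb of a chromosome end, against 1.37%.

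**Figure D2:**
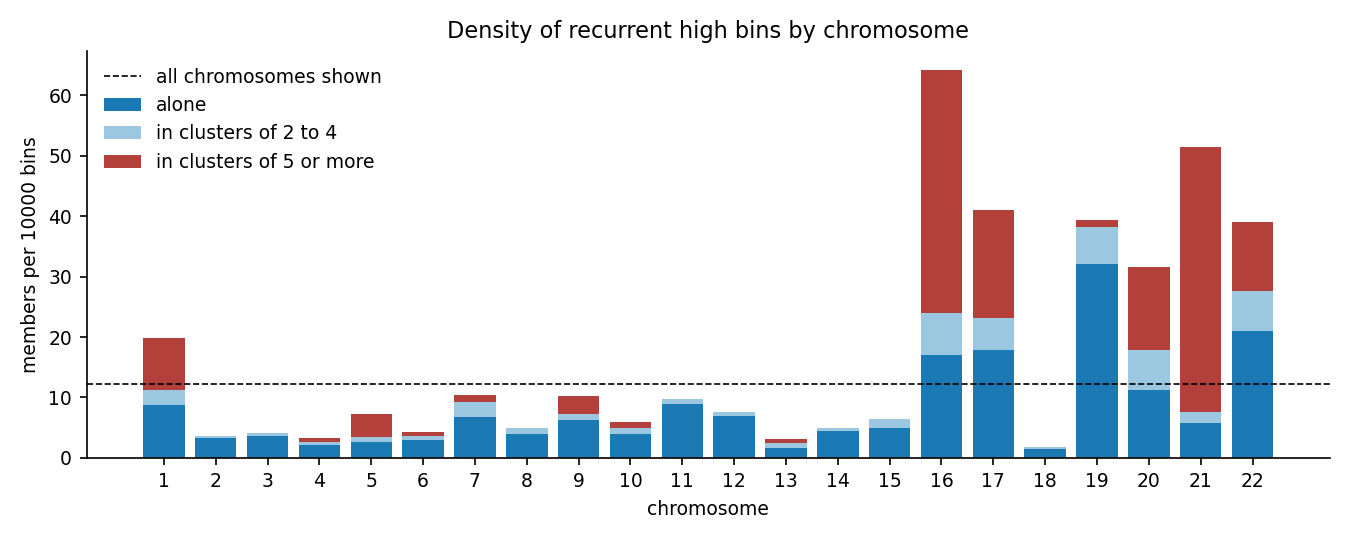
Members per 10000 bins on each autosome, split into those alone, in clusters of 2 to 4 and in clusters of 5 or more, with the value over all chromosomes shown as a dashed line. Chromosome 16 stands at 64.2 and chromosome 18 at 1.75.

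Most members were in introns or between genes, as most of the genome is. By the centre of the bin, 1539 (47.6%) were intronic and 1207 (37.3%) intergenic, against 53.3% and 39.8% of all bins. Promoters, from 1000 bases before to 100 after a transcript start, held 127 members (3.93% against 1.92%), coding exons 135 (4.17% against 1.11%), transcript ends 143 (4.42% against 2.07%) and 5′ untranslated exons 7. CpG islands held 231 (7.14% against 1.504%). A potential G-quadruplex, written as 4 runs of at least 3 G separated by 1 to 7 bases on either strand, was present in 701 (21.7% against 9.68%). The members' GC content had a median of 52.4% (5th to 95th percentile 39.7 to 63.5%) against 39.9% for all bins, and they held a mean of 35.4 runs of at least 3 G or C per kb against 20.1.

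Members lay close together far more often than bins at large lay near a member. With starts joined up to 10 kb apart, 47.6% of members had another member nearby, against 1.56% of all bins, and 1020 members (31.5%) touched another one. There were 257 clusters of at least 2, of which 77 held at least 5 and together 1107 members. Members in these 77 clusters held repeated sequence more often than those standing alone. Of them, 77.1% consisted mostly of 32-base words that occur more than once in the genome. The share was 17.7% for those alone and 6.70% for a sample of 1 bin in 100. Input reads of the clustered members were 2.55 times the median bin, and those of members alone 1.24 times. GC content was alike at 51.5 and 52.6% (medians).

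The 5 largest clusters were 4 on chromosome 16 and 1 on chromosome 1. The largest, chr16:30189001-30290000, had 58 members over CORO1A, BOLA2B, SLX1A, SULT1A3 and NPIPB13, the last from the nuclear pore complex interacting protein family that spread by segmental duplication. The next, chr16:74353001-74429000, had 57 members over NPIPB15 and CLEC18B, a C-type lectin gene. The third, chr16:21492001-21581000, had 47 members over SMG1P3 and SLC7A5P2, both pseudogenes, with no protein-coding gene. The fourth, chr16:70122001-70200000, had 44 members over PDPR, the regulatory subunit of pyruvate dehydrogenase phosphatase, and CLEC18C. The fifth, chr1:2652001-2699000, had 43 members within TTC34 and the highest mean value of these, 67.5, with 8 members high in all 12 columns. A second TTC34 cluster lay at chr1:2746001-2760000, so that 57 members fell within this gene, the most of any protein-coding gene.

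Other large clusters lay in sequence of several kinds. Of 36 members at chr1:228609001-228646000, a stretch that holds 16 genes for 5S ribosomal RNA, 3 were high in all 12 columns, and the GC content averaged 67.9%. The cluster chr21:8988001-9043000 had 41 members. The 38 members at chr20:29910001-30011000 lay in no annotated gene, in sequence with a GC content of 37.7%, of which 48.9% of 12-base words recurred within the same bin. A further 37 members lay over ZDHHC11B at chr5:745001-797000, and 30 at chr17:17146001-17208000 over MPRIP, which binds myosin phosphatase and RhoA. In the MPRIP cluster the median member held 4.12% repeated 32-base words and yet had 2.53 times the input reads of the median bin.

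Read counts recovered from the deposited values showed that OG and input rose together at members. OG reads were 1.95 times the median bin (median over members, 5th to 95th percentile 1.54 to 4.49) and input reads 1.43 times (1.04 to 3.95), against 1.02 for both over all bins. The log2 ratio of OG to scaled input reads was 0.83 against 0.42 over all bins, a ratio built from the same reads that chose the members. It was 0.90 in members alone and 0.70 in clusters of 5 or more. The share of bins that were members rose with input: 0.0481% of bins under 1.3 times the median input, 0.578% from 1.3 to 2 times, 36.7% from 2 to 4 times and 92.5% of the 161 bins above that. Among the 149 members of the last class the log2 ratio was 0.58, and over all bins of that class 0.57. Input thus moved with membership, and the part that copy number or read placement plays in it was not tested.

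**Figure D3:**
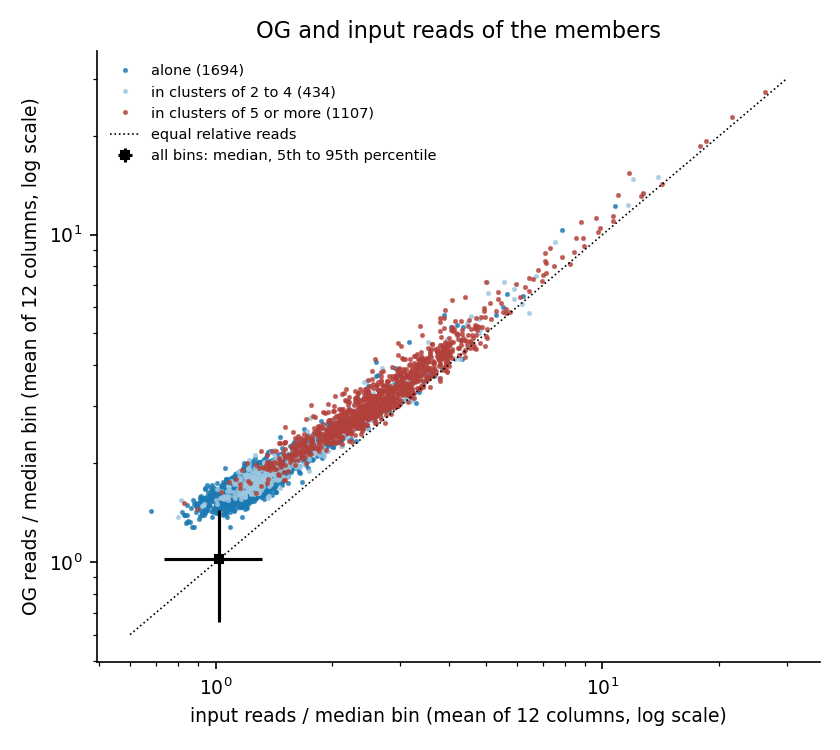
OG reads against input reads of each member, both relative to the median bin and averaged over 12 columns (log scales), with the median and the 5th to 95th percentile of all bins in black. Members alone sit near an input of 1.24 and members in clusters of 5 or more near 2.55, with median relative OG reads of 1.74 and 3.03.

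When bins were ranked by the log2 ratio of OG to scaled input reads in place of the difference, 947 bins passed the same limits and only 41 of them were members. The bins ranked by ratio had a mean GC content of 66.6% and 65.9% lay in CpG islands, against 52.5% and 7.14% for the members. Of the members, 1.27% were thus kept.

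The surroundings separated the 2 kinds of member. Around members alone the value was 3.05 times the column mean at the bin itself, 1.76 and 1.79 times in the bins on either side, and 1.53 and 1.52 times at 20 kb. Around members in clusters of 5 or more it was 4.60 times at the bin and still 2.57 and 2.58 times at 20 kb. Input followed the same shapes, from 1.35 to 1.17 and 1.18 times the median bin around members alone, and from 2.92 to 1.92 and 1.94 around clustered ones. The lone peaks were thus mostly 1 bin wide, on a plateau whose GC content was about 49.6% at 20 kb. Neighbours of lone members within 10 kb are not members by construction.

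**Figure D4:**
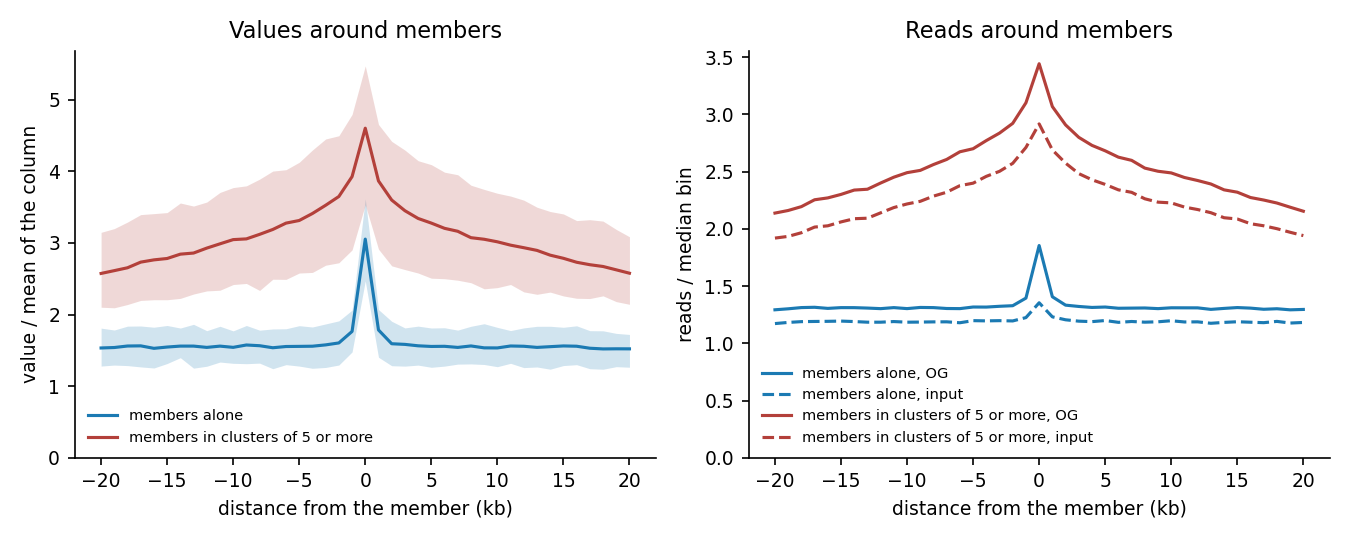
Left, mean value relative to the column mean by distance from members standing alone and from members in clusters of 5 or more, with bands from the lowest to the highest column. Right, OG (solid) and input (dashed) reads relative to the median bin, where lone members fall to their plateau within 2 kb and clustered members decline over 20 kb.

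The member with the highest mean, chr1:2654001-2655000 in a TTC34 intron, was high in all 12 columns. Its values were 246, 241 and 194 in WT, 290, 137 and 225 in MUTYH-/, 225, 379 and 262 in OGG1-/, and 114, 320 and 278 in DKO. The 4 genotypes overlapped. OG reads there were 27.2 times and input reads 26.3 times the median bin, for a log2 ratio of 0.50, below the median of the members. A limma fit over all bins gave a log2 fold change of -0.36 for DKO against WT (adjusted p = 1.13e-06) at columns whose ranges overlapped. That fit uses scaled columns on a log scale. On the unscaled values the DKO mean (237) was above the WT mean (227), with DKO replicate 1 the lowest of all columns. For MUTYH-/ the log2 fold change was -0.33 (limma, adjusted p = 0.000264). Both changes were under 0.5 in size, the limit used for calls. The 3 other bins of the repeat among the highest had means of 212, 173 and 168, and for DKO none of them passed the adjusted limit (limma, adjusted p from 0.859 to 0.990). In MUTYH-/ the bin chr1:2655001-2656000 had a log2 fold change of -0.56 (limma, adjusted p = 2.97e-06), again with columns that overlapped with WT.

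The bin that matched the start of RNA18SN2, chr21:8988001-8989000, had no coding gene nearer than TPTE at 1533052 bases. Values were 259, 273 and 245 in WT, 248, 161 and 182 in MUTYH-/, 243, 216 and 274 in OGG1-/, and 96.1, 87.0 and 122 in DKO. All DKO columns lay below all others. The log2 fold change of DKO against WT was -1.66 (limma, adjusted p = 6.23e-118), the smallest p of any loss among members in that knockout. OG reads were 21.4 ± 3.21 times the median bin in WT and 10.7 ± 3.46 in DKO, and input reads 14.7 ± 1.997 and 10.4 ± 4.94 (SD, n = 3), so input was also lower on average in DKO, where it ranged from 4.74 to 13.6. In the single knockouts input was 10.9 ± 1.36 in MUTYH-/ and 10.9 ± 1.24 in OGG1-/. Their log2 fold changes were -0.62 in MUTYH-/ (limma, adjusted p = 3.67e-13) and -0.39 in OGG1-/ (limma, adjusted p = 0.0164), the latter under the fold limit.

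A member near the 5S ribosomal RNA genes was high in 11 columns and below 0 in 1 DKO column. Fewer than 500 bases of this bin are determined in the reference, so it was given no GC content. The words counted for copies in it all recur in the genome. At chr1:228558001-228559000, 58602 bases from RNF187, values were 175, 176 and 198 in WT, 219, 68.7 and 244 in MUTYH-/, 211, 200.1 and 349 in OGG1-/, and -61.0, 283 and 181 in DKO. The DKO columns overlapped with those of WT, and only DKO replicate 1 was below 0. The log2 fold change of DKO against WT was -2.62 (limma, adjusted p = 7.63e-106). Input was 18.7 ± 0.191 times the median bin for WT, 8.11 ± 1.002 for MUTYH-/, 11.5 ± 2.21 for OGG1-/ and 9.60 ± 1.97 for DKO (SD, n = 3).

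The highest members of 3 chromosome 16 clusters, whose sequences are shown above, overlapped between all genotypes. The SULT1A3 bin, chr16:30202001-30203000, had values of 25.2, 91.7 and 62.5 in WT, 63.4, 51.8 and 49.7 in MUTYH-/, 39.2, 78.5 and 103 in OGG1-/, and 101, 78.0 and 37.6 in DKO. The CLEC18B bin, chr16:74411001-74412000, had 90.3, 89.3 and 52.9 in WT, 87.8, 58.3 and 49.5 in MUTYH-/, 16.8, 52.7 and 84.9 in OGG1-/, and 77.8, 98.2 and 79.0 in DKO. The bin in ENSG00000247228, a long non-coding RNA gene, chr16:70165001-70166000, had 31.4, 66.4 and 38.2 in WT, 125, 42.7 and 36.1 in MUTYH-/, 42.8, 72.2 and 83.1 in OGG1-/, and 29.8, 52.8 and 25.2 in DKO. Their input was 2.96, 4.93 and 3.75 times the median bin.

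One of the highest members varied widely within each genotype. At chr16:33338001-33339000, 22340 bases from TP53TG3B, values were -2.33, 249 and -54.9 in WT, 136, 31.98 and 380 in MUTYH-/, 282, 211 and 513 in OGG1-/, and -109, 225 and 64.2 in DKO. Among members beyond the fold limit, this bin gave the smallest p of any gain in MUTYH-/ (log2 fold change 4.18, adjusted p = 9.04e-23, limma), although the WT and MUTYH-/ columns overlapped. Its input was 35.6 ± 5.13 times the median bin in WT and 4.65 ± 2.82 in MUTYH-/. Its OG reads were also lower in MUTYH-/, 9.45 ± 6.06 times the median bin against 27.8 ± 6.71 in WT. The subtracted value thus rose while mean OG reads fell. The neighbouring bin chr16:33337001-33338000 gave the smallest p of any gain in OGG1-/ (log2 fold change 4.45, limma adjusted p = 3.10e-42), with input of 28.3 ± 4.95 in WT and 9.57 ± 4.27 in OGG1-/. Mean OG reads in this bin were likewise not higher in OGG1-/, 16.5 ± 3.69 times the median bin against 20.4 ± 2.23 in WT. There the OGG1-/ columns (334, 197 and 438) lay above the WT columns (-31.6, 68.5 and 26.1). Each of these bins met the rule through 9 high columns. They included every MUTYH-/ and OGG1-/ column but, of WT, replicate 2 only, so nothing is read from these p-values or this separation. Values below 0 are set to 0 on the log scale of this fit.

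Members high in all 12 columns included a coding exon. HRNR encodes hornerin, a repetitive protein of the skin barrier, and its bin chr1:152214001-152215000 had values of 114, 110 and 107 in WT, 202, 98.4 and 165 in MUTYH-/, 126, 202 and 101 in OGG1-/, and 46.5, 162 and 207 in DKO. The genotypes overlapped, and input was 8.79 times the median bin. Further bins of this kind were chr16:1025001-1026000, 38522 bases from SOX8 (mean 140), chr1:236097001-236098000, 32392 bases from NID1 (133), chr1:228622001-228623000 between 5S genes (160) and chr1:2758001-2759000 in the second TTC34 cluster (125). In all of these input was between 7.87 and 12.8 times the median bin.

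Members at promoters were mostly modest. The 127 had a median value of 27.1, median input of 1.36 times and a log2 ratio of 0.85, and 28 of them lay in CpG islands. None was high in 12 columns. The 3 with 11 high columns were at SOX2, NPIPB15 and KRT17P1, and those with 10 were at CROCCP2, ZDHHC11, ENSG00000290890, CLPS and MXD3. These names are of the gene over or nearest the bin's centre, and the transcript start may be that of another transcript or gene. The centre of the SOX2 bin lay within the SOX2 gene. MXD3, a partner of MAX, was the one among the 10 promoters named with input close to the median bin, 1.27 times. The bin lay 744 bases from the gene and had values of 8.79, 48.0 and 30.5 in WT, 47.4, 38.5 and 34.3 in MUTYH-/, 10.7, 31.8 and 45.4 in OGG1-/, and 30.5, 42.6 and 35.8 in DKO, with no separation of the genotypes. The other 9, which included BOLA2B and a bin at chr21:8758001-8759000 with 9 high columns, had input of 2.01 to 5.55 times the median bin.

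Of the members, 114 had at least 2 times the median input although under 20% of their 32-base words recur in the genome. The gene with the most of them was MPRIP with 21, followed by ZDHHC11B with 9 and PDPR with 8. Fewer were in SOX2 (2 of the 4 bins over the gene), KLF4 (1 of 7) and MYC (2 of 8). Together with POU5F1, which encodes OCT4, these are the transcription factors used to reprogram cells, and the 4 genes were singled out after their values were seen. HAP1 arose from KBM-7 cells during an attempt to reprogram them with these factors. In SOX2, members covered the bins at chr3:181712001-181713000 and chr3:181713001-181714000, with 5.55 and 4.58 times the median input, while the bins on either side had 0.725 and 1.16 times. In MYC they were chr8:127738001-127739000 and chr8:127740001-127741000, with 7.53 and 6.73 times, against 1.32 times in the bin between them. KLF4 had 1 member, chr9:107487001-107488000 over coding sequence, with 2.47 times. POU5F1 had 1 member among 17 bins, chr6:31164001-31165000, with 1.75 times, and 45.4% of its 32-base words recur elsewhere.

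In some of these bins the input differed between genotypes. The first SOX2 bin had values of 95.6, 69.3 and 179 in WT, 91.0, 33.7 and 69.4 in MUTYH-/, 147, 156 and 136 in OGG1-/, and 2.02, 79.2 and 81.0 in DKO. The fit gave DKO against WT a log2 fold change of -2.29 (limma, adjusted p = 2.299e-16), with overlapping columns and DKO replicate 1 far below the others. Input was 9.63 ± 0.861 times the median bin for WT, 4.37 ± 0.877 for MUTYH-/, 4.23 ± 0.798 for OGG1-/ and 3.98 ± 0.520 for DKO (SD, n = 3). Input at KLF4 was also highest in WT, 4.49 ± 0.266 in WT and 1.68 ± 0.112 to 1.87 ± 0.248 in the knockouts. In the first MYC bin the values were 137, 78.2 and 84.8 in WT, 188, 77.0 and 202 in MUTYH-/, 117, 148 and 206 in OGG1-/, and -23.2, 68.2 and 179 in DKO, with input of 9.74 ± 0.704 times in WT and 5.48 ± 0.512 to 7.75 ± 1.14 in the knockouts. In the second MYC bin input was 6.89 ± 1.305 in WT and 5.98 ± 0.121 to 7.04 ± 0.463 in the knockouts. Whether extra copies in the cells set these values was not tested.

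Some genes of base excision repair, the pathway of OGG1 and MUTYH, held a member. Of the 19 listed genes outside the regions left out, 3 had 1 member each in the gene or the 1 kb before it: MUTYH itself, APEX1, the endonuclease that cuts the abasic site, and MPG, which removes alkylated purines. The share, 15.8%, stood beside 6.66% of 18852 protein-coding genes. Zinc finger genes named ZNF had members in 15 of 501, olfactory receptor genes in 1 of 415 and histone genes in 0 of 87. Small nuclear RNA genes named RNU, pseudogenes included, had them in 3 of 1678, and ribosomal RNA genes in 16 of 45. The cluster chr1:228609001-228646000 alone holds 16 ribosomal RNA genes, so the last count is mostly of 1 locus.

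The MUTYH bin, chr1:45333001-45334000 over coding exons, was high in 6 columns, those of MUTYH-/ and OGG1-/. Values were -7.42, 7.07 and 9.97 in WT, 75.3, 47.0 and 33.0 in MUTYH-/, 60.7, 40.8 and 35.4 in OGG1-/, and 2.86, 17.3 and 28.3 in DKO. Every MUTYH-/ and OGG1-/ column lay above every WT and DKO column, but these 6 columns are the ones through which the bin met the rule, so this is a description without a test. OG reads were 1.25 ± 0.489 times the median bin for WT, 2.27 ± 0.508 for MUTYH-/, 2.08 ± 0.433 for OGG1-/ and 1.08 ± 0.177 for DKO. Input was higher in WT (1.65 ± 0.248) than in MUTYH-/ (0.833 ± 0.0829), OGG1-/ (0.964 ± 0.319) and DKO (0.866 ± 0.205). APEX1 and MPG had overlapping genotypes, apart from APEX1 being higher in every WT column (24.8, 29.8 and 51.6) than in every MUTYH-/ column (23.3, 5.83 and -4.34). Every WT column and no MUTYH-/ column of the APEX1 bin was high, so this too is a description.

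The mean subtracted value of all members overlapped between the genotypes. Relative to the column mean it was 3.68 ± 0.334 for WT, 3.75 ± 0.452 for MUTYH-/, 3.87 ± 0.204 for OGG1-/ and 3.33 ± 0.469 for DKO (SD, n = 3). DKO replicate 1 stood lowest at 2.86, with 334 members at or below 0 where the other columns had 78 to 203, and MUTYH-/ replicate 1 stood highest at 4.26. Members were high in all 3 columns of WT in 579 cases, of MUTYH-/ in 638, of OGG1-/ in 739 and of DKO in 408, and 2453 (75.8%) were high in at least 1 column of every genotype. The reads behind these values differed more. The members' mean input was 2.09 to 2.18 times the median bin in the WT columns and 1.75 to 2.05 times in the knockout columns, with no overlap. Their mean OG reads were 2.49 to 2.82 times the median bin in WT and 2.18 to 2.33 times in DKO, also without overlap, while MUTYH-/ (2.34 to 2.61) and OGG1-/ (2.40 to 2.61) overlapped with WT. The part of input in the comparisons of genotypes was not tested.

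Counts of members whose columns did not overlap with WT were set beside those of all bins. On values scaled to the mean column total, 162 members (5.01%) lay above WT in every MUTYH-/ column, against 4.82% of all bins, and 167 (5.16%) below, against 5.10%. For OGG1-/ 188 (5.81%) lay above, against 4.99%, and 141 (4.36%) below, against 4.99%. For DKO 114 (3.52%) lay above, against 4.99%, and 213 (6.58%) below, against 4.96%. In clusters of 5 or more the share below WT was 9.03% in DKO, 5.78% in OGG1-/ and 7.59% in MUTYH-/, and elsewhere it was 5.31%, 3.62% and 3.90% in this order. Of the 100 clustered members below WT in DKO, 29 lay in the 5S array described further on.

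The limma fit, in which a bin was called when p did not exceed 0.01 before adjustment and its log2 fold change passed 0.5 in size, called more members than its background. In MUTYH-/ 120 members rose (3.71%) against 0.300% of bins tested, and 148 fell (4.57%) against 0.322%. In OGG1-/ 120 rose (3.71%) against 0.299%, and 83 fell (2.57%) against 0.256%. In DKO 85 rose (2.63%) against 0.296%, and 239 fell (7.39%) against 0.312%. These shares rest on the model: each bin took its variance from the trend with mean level alone, so its own spread did not enter. Without the filter on low values each bin's own spread did enter, and the shares were then near the background: 32, 30 and 39 members were called in MUTYH-/, OGG1-/ and DKO, 0.989%, 0.927% and 1.21% of members, beside 1.07%, 0.967% and 1.04% of all bins.

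The median log2 fold change of members was 0.01 for MUTYH-/, where that of all bins was -0.02. It was 0.11 for OGG1-/ and -0.17 for DKO, where all bins stood at 0. The DKO median was 0.03 without DKO replicate 1, and without WT replicate 3 the medians were -0.12 for MUTYH-/, -0.03 for OGG1-/ and -0.31 for DKO. The MUTYH-/ median was 0.18 without MUTYH-/ replicate 3. With columns not scaled, all bins shifted by 0.12, 0.21 and 0.21, and the calls among members stood at 163 higher and 96 lower in MUTYH-/, 199 and 42 in OGG1-/, and 150 and 149 in DKO. These were 8.01%, 7.45% and 9.24% of members, beside 0.530%, 0.584% and 0.606% of all bins. Among all bins, 9939 were higher and 4914 lower in MUTYH-/, 12747 and 3627 in OGG1-/, and 12514 and 4474 in DKO. After Benjamini-Hochberg adjustment over all bins tested, members were 13 of 14 calls in MUTYH-/ (0.000500% of bins tested), 6 of 7 in OGG1-/ (0.000250%) and 35 of 39 in DKO (0.00139%). Members were chosen for high values and the fitted variance falls with the mean level, so nothing is read from this share. The columns did not overlap with WT in 6, 4 and 17 of these, and a column at or below 0 entered in 7, 4 and 19.

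Most adjusted losses in DKO lay in the 5S ribosomal RNA array. Of its 36 members, 34 fell in DKO, 26 in MUTYH-/ and 4 in OGG1-/ by the unadjusted rule, and none rose. Of all bins tested, 0.312%, 0.322% and 0.256% fell, in the same order. The array was singled out after its values were seen. Its near-identical copies share reads, so its members are not separate observations of the array. Of the 33 adjusted losses in DKO, 21 lay there, and 12 lay outside. Its mean value was 80.2, 103 and 78.1 in WT, 57.0, 28.2 and 62.3 in MUTYH-/, 74.7, 56.0 and 97.1 in OGG1-/, and 8.78, 52.4 and 46.6 in DKO. All MUTYH-/ and DKO columns were below all WT columns, and OGG1-/ overlapped with WT.

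The input of the array was lower in every knockout column than in every WT column. It was 4.85, 5.51 and 5.25 times the median bin in WT, 2.298, 1.81 and 1.79 in MUTYH-/, 3.14, 2.58 and 1.97 in OGG1-/, and 2.46, 1.87 and 2.32 in DKO, with no overlap between WT and the knockouts. OG reads were 7.41 ± 0.932 times the median bin for WT, 3.03 ± 0.582 for MUTYH-/, 4.12 ± 0.41 for OGG1-/ and 2.62 ± 0.445 for DKO (SD, n = 3). The number of 5S genes per genome varies between cells and clones, and its part in the difference was not tested. Outside the array, 205 members fell and 85 rose in DKO, with a median log2 fold change of -0.15. Of all bins tested, 0.312% fell and 0.296% rose in DKO.

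**Figure D5:**
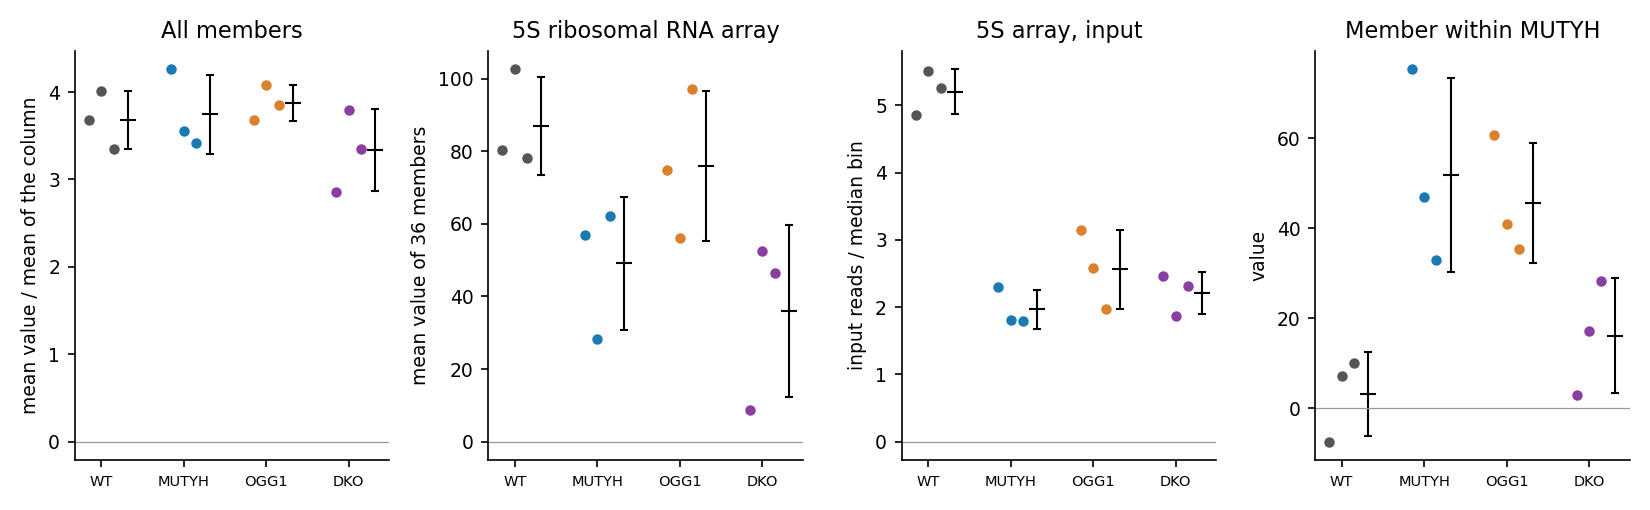
Points are single columns and bars the mean ± SD of 3 columns per genotype, for the mean value of all members relative to the column mean, the mean value of the 36 members of the 5S array, the input reads of that array relative to the median bin, and the value of the member within MUTYH. The WT columns of the array's input, between 4.85 and 5.51, lie above all knockout columns, and in the MUTYH bin the MUTYH-/ and OGG1-/ columns lie above those of WT and DKO, being the columns through which it was chosen.

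Of the other members named for their p, the first lay alone and the second in a chromosome 16 cluster. At chr10:128464001-128465000, 338078 bases from MKI67, values fell in MUTYH-/ to -12.5, 9.03 and 19.8 from 124, 91.5 and 133 in WT, with 83.4, 46.0 and 80.4 in OGG1-/ and 112, 78.0 and 84.5 in DKO (log2 fold change -4.43, limma adjusted p = 2.01e-23). This bin met the rule through 9 high columns, those of WT, OGG1-/ and DKO and none of MUTYH-/, so nothing is read from this p. Its input moved the other way, 4.37 ± 0.873 times the median bin in WT and 6.26 ± 0.473 in MUTYH-/. In PDPR, chr16:70132001-70133000 gave the smallest p of any OGG1-/ loss beyond the fold limit, from 33.4, 26.7 and 42.6 in WT to -13.8, -2.89 and 15.04 (-4.04, unadjusted p = 2.78e-06), and it missed the adjusted limit (limma, adjusted p = 0.599). None of the 8 high columns of this bin was of OGG1-/, so the fall is a description only.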

How the data were processed

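OG-seq values of 1 kb bins were analysed in 12 columns of HAP1 cells, 3 per genotype. The authors trimmed adapters with cutadapt 2.8, mapped to GRCh38 with Bowtie2 2.3.5.1 at default settings, which places a read with several equal sites at 1 of them, marked duplicates, counted reads with bedtools, scaled input by signal extraction scaling and removed blacklisted bins. The deposited score is OG reads minus scaled input reads per bin, below 0 where input exceeds OG, and is not scaled between columns. Each value was solved as whole OG reads minus whole reads of 2 input read sets times a factor each, which succeeded for all bins. Reads were used for levels and ratios, with 1 read added for log2 ratios, and relative reads are means over columns divided by the column's median bin.

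Features came from GENCODE 44 and GRCh38. CpG islands were 500-base windows with at least 55% GC and an observed to expected CpG ratio of 0.65. Copies were counted for 32-base words every 10 bases. Members were joined where starts lay within 10 kb. limma 3.58.1 in R 4.3.3 was fitted to log2(value + 1) with a variance trend over 2802495 bins above 0 in at least 3 columns, values below 0 set to 0 and columns scaled to the mean column total. The prior degrees of freedom came out infinite. Figures used matplotlib 3.10.9. Scripts were tested on simulated data.

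Members, gene lists and tests were chosen with earlier results of these data known. Bins named are the 10 with the highest mean, the 5 largest clusters, the 10 highest of those high in 12 columns, the smallest p in each knockout and direction, and the 10 promoter members with the most high columns. The sequence and values of 1 named bin are not reported here. Each bin was named after the gene over its centre or else the nearest protein-coding gene. The 4 reprogramming genes and the 5S array were singled out after their values were seen. Near-identical copies share reads, so values in repeats belong to the family and not to 1 copy. Counts of 3 columns a side allow an exact permutation p no lower than 0.10.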

Additional observations from a re-analysis of the deposited data

How the results depend on the processing

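The number of members and their makeup depended on the limits and on the quantity ranked. At the 99th percentile there were 536 members, with a mean GC content of 54.7%, 16.4% in CpG islands, 47.8% intergenic and 80.8% with another member within 10 kb. Requiring 8 of 12 columns gave 730, with 14.2%, 45.3% and 77.4% for the last 3. Ranking by the log2 ratio gave 947, with 66.6%, 65.9%, 19.3% and 11.6% for the 4 measures in the same order, and subtracting the mean of each GC stratum gave 1570, with 49.4%, 8.54%, 48.9% and 72.5%, of which 1415 were among the 3235. Leaving out the columns of 1 replicate number, or DKO replicate 1 alone (chosen after seeing the data), gave 1870 to 2477 members, mean GC content of 52.4 to 53.0%, 7.22 to 8.40% in CpG islands, 37.8 to 39.5% intergenic and 45.0 to 50.2% with a neighbour. The share high in a genotype not used for the choice was 55.3% at the 99th percentile and 68.6% with 7 of 9 columns, and 32.1 to 33.9% without 1 replicate number.

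Members called in MUTYH-/, OGG1-/ and DKO numbered 268, 203 and 324. These were 8.28%, 6.28% and 10.0% of members, beside 0.622%, 0.555% and 0.609% of all bins tested. With Benjamini-Hochberg adjustment they were 13, 6 and 35 (0.402%, 0.185% and 1.08% of members, beside 0.000500%, 0.000250% and 0.00139% of all bins). With a pseudocount of 5 they were 147, 99 and 180 (4.54%, 3.06% and 5.56%, beside 0.651%, 0.589% and 0.645%). Without the filter they were 32, 30 and 39 (0.989%, 0.927% and 1.21%, beside 1.07%, 0.967% and 1.04%). With only the 2 groups compared in the fit, they were 483, 421 and 485 (14.93%, 13.01% and 14.99%, beside 0.288%, 0.315% and 0.291%). Leaving out single columns gave 277 to 330, 198 to 268 and 289 to 403. The shares of members were 8.56 to 10.2%, 6.12 to 8.28% and 8.93 to 12.5%. Those of all bins were 0.498 to 0.615%, 0.397 to 0.547% and 0.474 to 0.568%. A replicate block gave 259, 195 and 319 (8.01%, 6.03% and 9.86%, beside 0.619%, 0.553% and 0.606%). The replicate numbers did not pair the columns: deviations of same-numbered columns from their group means correlated between -0.00542 and 0.00712 across bins. The cause of these shifts was not tested. The median bin held 20 to 39 OG reads per column, which limits the precision of any single bin. Leaving out 1 replicate number or DKO replicate 1 kept 1453 to 2477 of the 3235 members.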
